A study of Mus musculus with 2 samples.

Results

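The genes described here are the nuclear genes of the mitochondrial respiratory chain and ATP synthase, read in sorted mouse lung cells after bleomycin and after saline. They were chosen by symbol, as every gene whose name follows the Nduf, Sdh, Uqcr, Cox4 to Cox8 or Atp5 naming series and that reached 100 unique molecular identifiers (UMIs, counts of single captured transcripts) over both libraries. Of 28692 genes in the files 92 matched the names and 90 reached the minimum. Cox7a1 was the lowest inside it with 220 UMIs, and Cox7b2 with 53 and Cox8c with 0 fell outside. The 90 members are 36 subunits of complex I, 4 of complex II, 8 of complex III, 18 genes of complex IV, 15 of complex V, 7 assembly factors of complex I (Ndufaf genes) and 2 further genes with Atp5 names (Atp5s and Atp5sl). Ndufa4 and Ndufa4l2 are placed with complex IV, where the NDUFA4 protein is now known to sit.

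Both libraries came from lungs of Lepr-Cre;Rosa26-tdtomato mice of 8-10 weeks, 1 from animals given bleomycin, a drug used to bring about lung fibrosis, and 1 from animals given saline. Cre is driven from Lepr, the leptin receptor gene, so that a cell is red if Lepr was active in it or in a cell it descends from; live red cells were sorted and read by 10x Genomics 3' version 2 chemistry. The sources used here give neither the dose, nor the day after treatment, nor the number of mice. With 1 library per treatment no difference could be tested against replicate spread: intervals are exact 95% intervals for counting error alone, and levels are in UPM, UMIs per 1000000 UMIs of the same class and library. The words rose and fell are kept for genes with at least 50 UMIs and 20 UPM in the higher library and a difference of 2-fold or more. A milder size, a log2 ratio of at least 0.32 up or down, was also counted, and genes past it are called higher or lower in the counts.

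The bleomycin library held 61537182 UMIs in 4473 cell barcodes and the saline library 37570380 in 5455. After filters and removal of likely doublets 4308 bleomycin and 5195 saline cells remained, with a median per cell of 12271 UMIs after bleomycin and 6300 after saline. The libraries shared 33 barcodes. Cells fell into 26 clusters, named by markers as cells like a given type. The fibroblast-like cells (3513 bleomycin, 3572 saline) differed in make-up: alveolar fibroblast-like cells numbered 362 after bleomycin and 2892 after saline, fibrotic fibroblast-like cells 998 after bleomycin and 12 after saline, and fibroblasts of no named kind 2016 after bleomycin and 414 after saline. Lepr itself was low in all classes, at 3.54 UPM in bleomycin fibroblasts and 44.2 in saline fibroblasts. Alveolar macrophage-like cells (332 bleomycin, 637 saline) had 59.1 after bleomycin and 87.1 after saline. The tdTomato transcript is not among the genes analysed here.

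The respiratory chain passes electrons from NADH (complex I) and succinate (complex II) through ubiquinone and complex III to oxygen at complex IV, pumping protons as it goes, and complex V uses the proton gradient to make ATP. Most subunits are encoded in the nucleus and imported, and a few are encoded in mitochondrial DNA. Complex IV has subunits with alternative isoforms: Cox4i2 is known as the lung and low-oxygen form of subunit 4, Ndufa4l2 is a hypoxia-inducible relative of Ndufa4, Cox6a2, Cox7a1 and Cox8b are heart and skeletal muscle forms, and Cox6b2 is known as a testis form. Cox8b is also a familiar transcript of mouse brown fat.

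The sequences just upstream of the Cox6b and Cox8 pairs are shown because their second isoforms were the members that fell in fibroblasts. They are the 120 bases before the start site in the RefSeq promoter table (build GRCm38.p6), read on the gene's own strand, which is the minus strand for all 4. Capitals mark a match to the ETS motif.
Cox6b2 (chr7:4753095-4753214): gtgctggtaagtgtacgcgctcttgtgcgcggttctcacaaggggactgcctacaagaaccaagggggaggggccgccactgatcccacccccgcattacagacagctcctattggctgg
Cox6b1 (chr7:30626115-30626234): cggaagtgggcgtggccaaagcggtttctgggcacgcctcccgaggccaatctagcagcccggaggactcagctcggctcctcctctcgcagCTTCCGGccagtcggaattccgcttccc
Cox8b (chr7:140900447-140900566): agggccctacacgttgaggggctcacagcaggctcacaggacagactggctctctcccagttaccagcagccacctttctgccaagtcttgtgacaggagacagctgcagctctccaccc
Cox8a (chr19:7217617-7217736): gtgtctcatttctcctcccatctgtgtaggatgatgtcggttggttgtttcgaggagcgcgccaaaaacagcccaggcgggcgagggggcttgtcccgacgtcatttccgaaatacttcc
The Cox8b stretch holds 1 CpG dinucleotide and that of Cox8a holds 9; Cox6b2 has 6 and Cox6b1 has 11.

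The table held promoters for 75 of the 90 members. Over the 250 bases before the start, members had a median of 15 CpG dinucleotides, against 6 over 27025 promoters. The binding motif of NRF1, a known activator of respiratory genes (the letters GCGCA, any base, then GCGC), was found on either strand in 13 of the 75 (17.3%) and in 3.86% of all promoters. The ETS letters CCGGAAG were in 12 (16%), against 7.05% of all promoters. The YY1 letters AANATGGC were in 5 (6.67%), against 3.93%. These 3 motifs share no letters that would make a match to 1 a match to another. Cox8b, Cox6b2 and Cox7a1 held none of them within the 250 bases, with 1, 8 and 4 CpG dinucleotides. By the counts above most of the 75 members also held none, so the lack of a match does not set these 3 apart. A match is a run of letters and not a measured site.

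Summed over the 90 members, respiratory chain transcripts made up between 17454 and 31831 UPM across the classes with at least 40 cells in a library. A 3' UMI counts a transcript end, so levels were not divided by length. In the bleomycin library lymphatic endothelial-like cells (31831) and pericyte-like cells (31728) stood highest, with intervals that overlap. Alveolar macrophages followed at 30501, and general capillary-like cells (21678) and adventitial fibroblasts (21623) were lowest, again with overlapping intervals. In the saline library pericytes stood highest at 31411, ahead of alveolar macrophages at 26801 and ciliated cells at 25970, and adventitial fibroblasts were lowest at 17454. The pericyte sums include Cox4i2 (3926 after bleomycin, 5712 after saline) and Ndufa4l2 (1834 after bleomycin, 2200 after saline). Cox4i2 alone was larger than the lead of saline pericytes over saline alveolar macrophages. The summed levels of pericytes in the 2 libraries had overlapping intervals, with Cox4i2 and Ndufa4l2 lower after bleomycin, while the fibroblast kinds were higher after bleomycin. Alveolar fibroblasts reached 26130 after bleomycin and 20933 after saline, and adventitial fibroblasts 21623 after bleomycin and 17454 after saline. Fibrotic fibroblasts had 25169 in the bleomycin library, and there were too few in the saline library for a level.

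**Figure D1:**
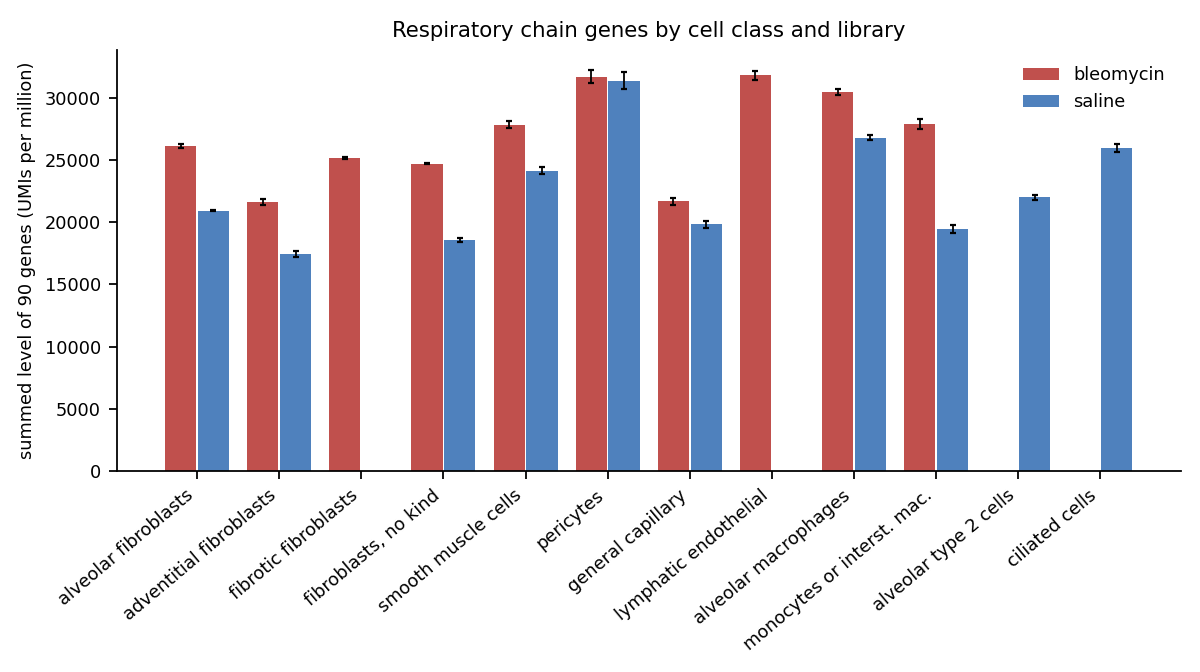
Summed level of the 90 respiratory chain genes (UPM, linear axis from 0) for each cell class with at least 40 cells in the library. Bars are 1 library each, bleomycin left of saline, with exact 95% Poisson intervals. Pericytes stand at 31728 after bleomycin and 31411 after saline, sums that include Cox4i2 (3926 after bleomycin, 5712 after saline). Every fibroblast kind with both bars is higher after bleomycin.

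The complexes did not stand in the same order in every class. In pericytes complex IV was the largest part, at 13049 UPM after bleomycin and 14110 after saline, ahead of complex I at 8463 after bleomycin and 7980 after saline. This order rested on Cox4i2 (3926 after bleomycin, 5712 after saline) and Ndufa4l2 (1834 after bleomycin, 2200 after saline). Together they held more than the difference between complexes IV and I in each library. In fibroblasts complexes I and IV were nearly level, at 7554 and 7420 after bleomycin and 6458 and 6082 after saline. Alveolar macrophages had more complex IV (10081 bleomycin, 9071 saline) than complex I (8204 bleomycin, 6529 saline). Lymphatic endothelial cells of the bleomycin library had more complex I (9870) than complex IV (8404). Complex II was the smallest complex everywhere, between 264 and 558 UPM.

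Most single members were spread over the classes, with a few exceptions. Each library had 10 classes with a level, but not the same 10. Lymphatic endothelial cells and fibrotic fibroblasts had a level after bleomycin alone, and ciliated and alveolar type 2 cells after saline alone. An even spread would put 10% of a member's summed level in each class. The median member had 14.5% of its summed level in its highest class after bleomycin and 15.7% after saline. In the bleomycin library 80 members stayed under 20%, and 73 did in the saline library. Those at 40% or more were Cox4i2, Ndufa4l2, Cox6a2 and Cox8b in both libraries and Cox7a1 in the bleomycin library, all of complex IV. For Cox6a2 in the bleomycin library this class, monocytes or interstitial macrophages, rested on 8 UMIs, 87.5% of them from 1 cell. In fibroblasts the members ran between 0.94 and 1162 UPM after bleomycin (median 206) and between 0.73 and 822 after saline (median 177). At least 100 UPM were reached by 68 members after bleomycin and 65 after saline, and 9 members lay under 10 in each.

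In fibroblasts the respiratory chain was modestly and broadly higher after bleomycin. The members summed to 24906 UPM after bleomycin and 20550 after saline, a ratio of 1.21 (95% counting interval 1.21 to 1.22). Of 80 members with enough UMIs, 68 had a ratio above 1, and the median log2 ratio was 0.28, beside -0.01 over all 5885 genes. At the milder size 34 members were higher and 4 lower, where 26.1% of all genes were higher and 29.1% lower. At 2-fold no member rose, where 5.95% of all genes did, and 2 fell, where 9.31% of all genes did. The share of a cell's UMIs held by the members had a median of 2.45% in bleomycin fibroblasts and 2.04% in saline fibroblasts. Median UMIs per cell, 13601 after bleomycin and 6836 after saline, moved with this difference. Over all cells together 82 members had enough UMIs. Of these 0 rose and 2 fell (all genes 4.76% and 9.09%), and 32 were higher and 5 lower at the milder size (all genes 25.1% and 27.1%).

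Over all fibroblasts together the complexes differed little in the size of the shift. Complex V, the ATP synthase, was higher by a log2 ratio of 0.33 (6765 UPM after bleomycin, 5375 after saline), and all 15 of its members had a ratio above 1. Complex III, which hands electrons to cytochrome c, was higher by 0.30 (2616 after bleomycin and 2132 after saline), with all 8 members above 1. Complex IV was higher by 0.29, complex I by 0.23 and complex II by 0.16. Within complex I the 7 core subunits, which carry the flavin and iron-sulphur clusters, summed to 827 after bleomycin and 727 after saline (log2 ratio 0.18). Its 29 supernumerary subunits summed to 6728 after bleomycin and 5731 after saline (0.23). Within complex V the 3 genes of the proton-carrying c ring differed most, at 1011 after bleomycin and 724 after saline (0.48). This held in adventitial fibroblasts (c ring 0.49, small membrane subunits 0.43). In alveolar fibroblasts the small membrane subunits differed most (0.44), with the c ring at 0.30. The F1 head and central stalk, where ATP is made, stood at 2394 after bleomycin and 1950 after saline (0.30), and the peripheral stalk at 1657 after bleomycin and 1385 after saline (0.26). Within the fibroblast kinds the values differed from these. Complex IV was at 0.37 in alveolar and 0.37 in adventitial fibroblasts, and complex III at 0.32 and 0.35. Some complex V members lay below a ratio of 1 there. The lowest F1 member of alveolar fibroblasts was at -0.01, and in adventitial fibroblasts Atp5b was at -0.11 and Atp5c1 at -0.04.

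**Figure D2:**
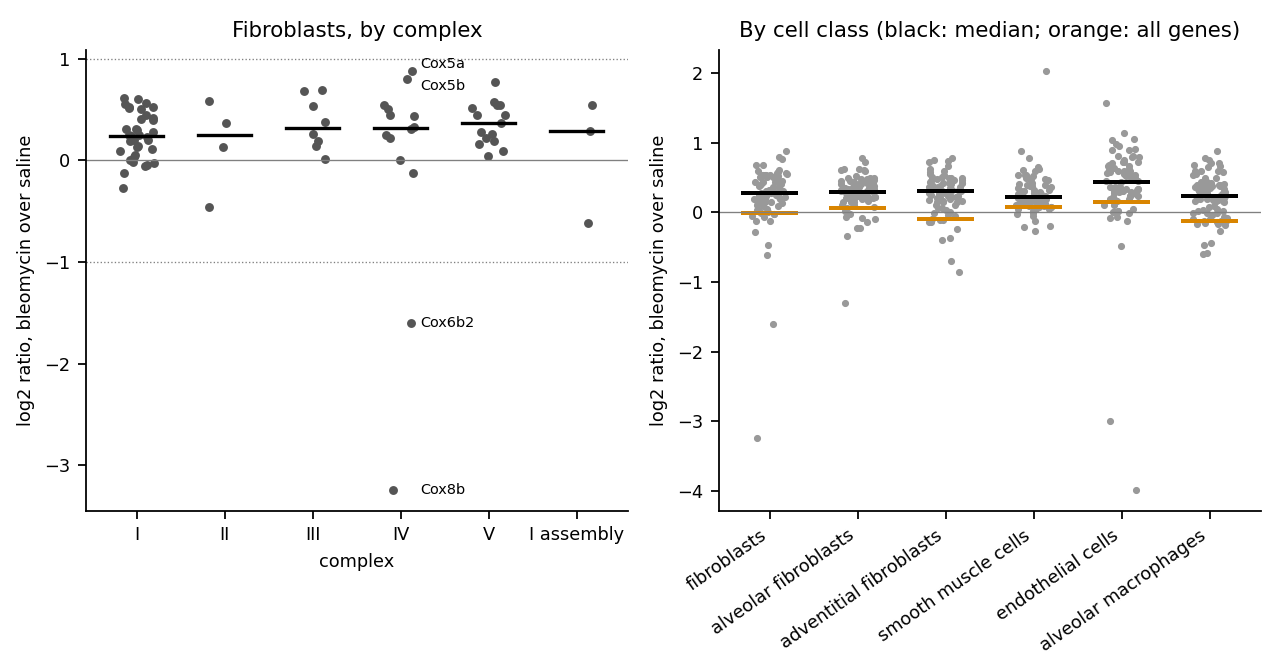
Log2 ratio, bleomycin over saline, of each member with enough UMIs, in fibroblasts by complex (left) and in 6 classes (right). Each point is a gene, black bars are medians of the members and orange bars medians of all genes; Cox8b (-3.24) and Cox6b2 (-1.60) lie far under the rest of complex IV.

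The largest ratios belonged to nuclear subunits of complexes III, IV and V. Cox5a, a structural subunit of complex IV, had 304 UPM in bleomycin fibroblasts and 165 in saline fibroblasts (log2 ratio 0.88, fold interval 1.78 to 1.91). Cox5b, which binds zinc in the same complex, had 487 after bleomycin and 279 after saline (0.80). Atp5o, the peripheral stalk subunit that confers oligomycin sensitivity, had 298 after bleomycin and 175 after saline (0.77). Uqcrq, a small subunit of complex III, had 430 after bleomycin and 266 after saline (0.69), and Uqcrc1, a core subunit of the same complex, had 171 after bleomycin and 106 after saline (0.69). All 5 stayed short of 2-fold. Cox5b is among 6 members (with Ndufb2, Ndufb8, Ndufaf7, Atp5h and Atp5l) whose last bases match another listed gene nearly perfectly, so that its count is uncertain.

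Within complex II Sdha was lower after bleomycin while the other subunits had ratios above 1. Sdha, the flavoprotein that oxidises succinate, had 73.8 UPM after bleomycin and 102 after saline (log2 ratio -0.46, fold interval 0.69 to 0.76). Sdhb, the iron-sulphur partner, had 151 after bleomycin and 117 after saline (0.37). The membrane anchors had 72.3 after bleomycin and 65.9 after saline (Sdhc, 0.13) and 81.7 after bleomycin and 54.0 after saline (Sdhd, 0.59). In alveolar fibroblasts alone Sdha had 89.9 after bleomycin and 105 after saline (-0.23), and in adventitial fibroblasts 54.8 after bleomycin and 71.0 after saline (-0.37), where the fold interval of 0.56 to 1.06 includes 1.

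Other members at the low end were of complex I. Ndufaf3, an assembly factor, had 26.5 UPM after bleomycin and 41.1 after saline in fibroblasts (-0.62). Ndufs7, a core subunit with an iron-sulphur cluster, had 136 after bleomycin and 164 after saline (-0.28). Ndufs1, the largest core subunit, was the lowest subunit gene of complex I and had 22.0 after bleomycin and 23.0 after saline (-0.06), with a fold interval of 0.87 to 1.06 that includes 1. Its most abundant subunit transcripts were Ndufa2 (497 after bleomycin and 433 after saline) and Ndufa13 (420 after bleomycin and 369 after saline). Of the other Ndufaf genes, Ndufaf2 had 50.3 after bleomycin and 34.2 after saline, and Ndufaf6 had 7.62 after bleomycin and 6.54 after saline.

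The most abundant transcripts of the later complexes moved by unequal amounts. Cox4i1, the common form of subunit 4, had 1162 UPM after bleomycin and 819 after saline (0.50), and Cox6c had 956 after bleomycin and 822 after saline (0.22). For complex III Uqcrh, the hinge protein, had 554 after bleomycin and 462 after saline (0.26) and Uqcrb 457 after bleomycin and 413 after saline (0.15), while Uqcrc2, the lowest, had 97.7 after bleomycin and 75.0 after saline (0.38). For complex V Atp5e, the epsilon subunit of the central stalk, had 800 after bleomycin and 713 after saline (0.17), Atp5l, a small membrane subunit, 862 after bleomycin and 602 after saline (0.52), and Atp5g3, the lowest, 189 after bleomycin and 138 after saline (0.45). The c ring genes Atp5g1, Atp5g2 and Atp5g3, which encode the same mature protein, had near ratios (0.54, 0.45 and 0.45). Atp5g1 held 35.3% of their UMIs in bleomycin fibroblasts and 33.8% in saline fibroblasts.

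Cox8b and Cox6b2 were the members that fell in fibroblasts. Cox8b lies on chromosome 7 at 140898945 to 140900446 (minus strand, GRCm38). It had 170 UMIs (3.26 UPM) in bleomycin fibroblasts and 1017 (39.3) in saline fibroblasts, a log2 ratio of -3.24 (fold interval 0.070 to 0.098). Its partner Cox8a had 790 after bleomycin and 786 after saline (0.01), so that Cox8b made up 0.41% of Cox8 UMIs after bleomycin and 4.76% after saline. Cox6b2 lies on chromosome 7 at 4751792 to 4753094 (minus strand) and had 80.8 after bleomycin and 248 after saline (-1.60, fold interval 0.31 to 0.34). Cox6b1 went the other way, with 621 after bleomycin and 457 after saline (0.44), and Cox6b2 held 11.5% of Cox6b UMIs after bleomycin and 35.2% after saline.

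Both genes were highest in alveolar fibroblasts, the kind that made up most saline and few bleomycin fibroblasts. Within alveolar fibroblasts Cox8b fell, with 62 UMIs (18.0 UPM) after bleomycin and 997 (46.0) after saline (-1.31, fold interval 0.30 to 0.51). With each cell thinned to 2000 UMIs the log2 ratio was -0.98, short of 2-fold. Cox6b2 did not pass 2-fold there, at 208 after bleomycin and 262 after saline (-0.33). Most bleomycin alveolar fibroblasts (295 of 362) were in a single cluster with 4 saline cells, and nearly all saline ones were in 6 other clusters. Fibrotic fibroblasts of the bleomycin library had 43.2 UPM of Cox6b2 and 1.49 of Cox8b, with Cox6b2 at 6.30% of Cox6b UMIs. In adventitial fibroblasts Cox6b2 had 92.7 after bleomycin and 152 after saline (-0.70).

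Levels also differed among the fibroblast clusters of a library. After saline Cox8b was highest, at 87.9 UPM, in a cluster led by Inmt, Slc7a10 and Gsta3, and had 58.2 and 57.8 in 2 other alveolar clusters led by Inmt. It had 21.1 in an alveolar cluster led by Ccl11 and Il6, and 7.82 in a cluster led by Clec3b and Rbp4. In the bleomycin library the alveolar cluster led by Mfap4 and Tcf21 had 21.3 and all other fibroblast clusters with at least 40 cells had at most 5.78. Cox6b2 was less uneven after saline, between 142 and 381 across the clusters, and ran between 37.1 and 211 after bleomycin. Shares of cells followed the levels: with cells thinned to 2000 UMIs Cox8b was seen in 4.42% of bleomycin and 9.54% of saline alveolar fibroblasts (unthinned 13.3% after bleomycin and 23.9% after saline, at a median of 8952 UMIs after bleomycin and 7069 after saline). In smooth muscle cells it was seen in 0 of 139 bleomycin and 0 of 235 saline thinned cells, where exact binomial upper limits on the share of cells with a UMI were 2.62% after bleomycin and 1.56% after saline (median unthinned UMIs 7617 after bleomycin and 4207 after saline). These limits cover counting error and apply to cells with a UMI, not to cells that express the gene.

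**Figure D3:**
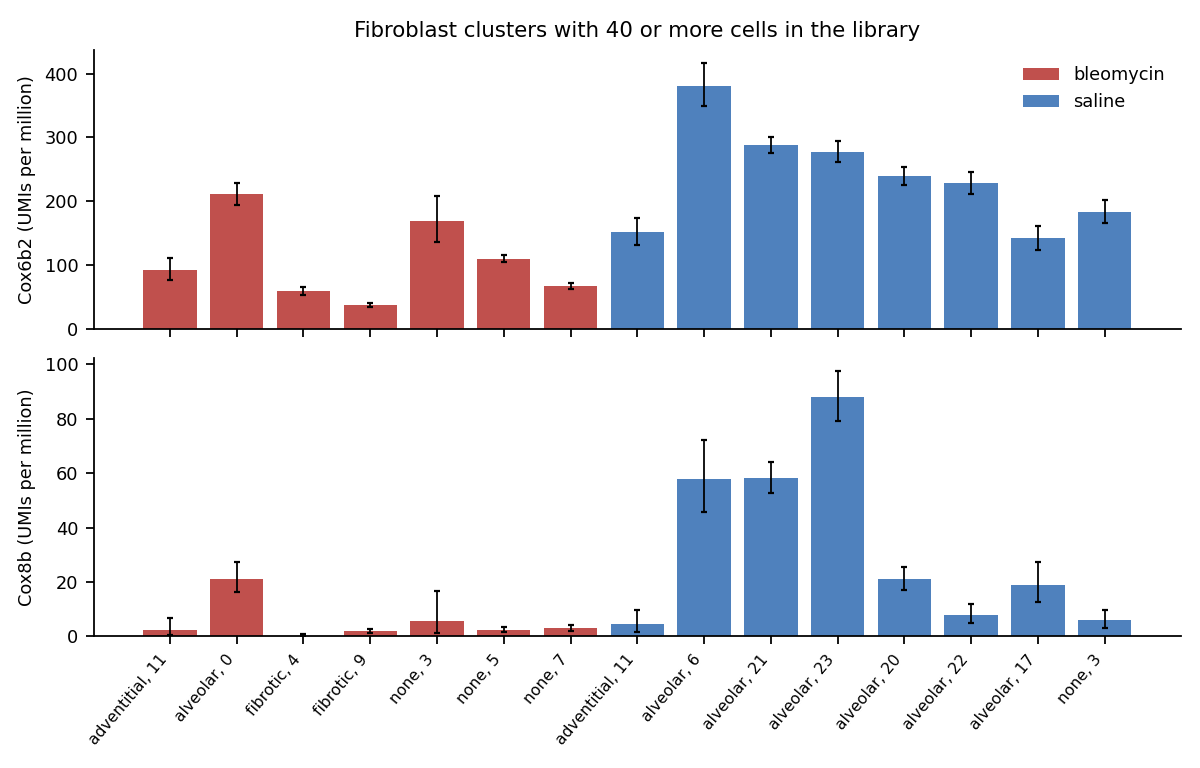
Cox6b2 (top) and Cox8b (bottom) in UPM (linear axes from 0) for fibroblast clusters with at least 40 cells in the library, labelled by kind and cluster number, bleomycin bars left of saline bars, with exact 95% Poisson intervals. Cox8b reaches 87.9 in saline cluster 23 and 21.3 in bleomycin cluster 0.

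Cox6b2 was not confined to fibroblasts. Alveolar macrophages had 114 UPM after bleomycin and 107 after saline, 9.87% of Cox6b UMIs after bleomycin and 11.3% after saline. The 8 alveolar fibroblast markers summed to 71.5 UPM in these bleomycin macrophages and 580 in the saline ones, and their part in the Cox6b2 level was not tested. Monocytes or interstitial macrophages had 37.9 UPM of Cox6b2 (29 UMIs) after bleomycin and 127 (92 UMIs) after saline. This was 4.32% of Cox6b UMIs after bleomycin and 22.1% after saline. With 83 bleomycin and 86 saline cells this class was short of the 100 asked for a comparison. In smooth muscle cells Cox6b2 held 3.27% of Cox6b UMIs after bleomycin and 2.90% after saline, and in pericytes 2.44% after bleomycin and 4.55% after saline.

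Pericytes stood apart from the other classes with a level by a pair of complex IV isoforms. Cox4i2 (chromosome 2, 152754173 to 152765037, plus strand) had 3926 UPM in 52 bleomycin pericytes (1815 UMIs) and 5712 in 49 saline pericytes (1516 UMIs). It held 76.9% (95% interval 75.2 to 78.6%) of subunit 4 UMIs after bleomycin and 86.7% (85.0 to 88.2%) after saline. In fibroblasts it held 0.26% after bleomycin and 0.88% after saline, where 1 cell held 55.3% of its 188 UMIs. Cox4i1 itself was not low in pericytes, at 1179 UPM after bleomycin and 878 after saline, near its fibroblast levels of 1162 after bleomycin and 819 after saline. Cox4i2 came in addition to it, and it was found in 48 of 52 bleomycin and 49 of 49 saline pericytes thinned to 2000 UMIs, at median depths of 7441 after bleomycin and 4517 after saline. In alveolar macrophages it was found in 0 of 332 bleomycin and 9 of 637 saline thinned cells, at 6714 after bleomycin and 4161 after saline. The pericyte clusters were formed without the members among the variable genes, and none of the 8 pericyte markers is a member; all 8 were detected in each library, at a sum of 2418 UPM after bleomycin and 3621 after saline.

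In pericytes Ndufa4l2 was abundant and Ndufa4 scarce. Ndufa4l2 (chromosome 10, 127514967 to 127517154, plus strand) had 1834 UPM in bleomycin pericytes and 2200 in saline pericytes, 95.7% of the pair's UMIs after bleomycin and 99.3% after saline. Ndufa4 had 38 UMIs in 52 bleomycin pericytes (82.2 UPM) and 4 UMIs in 49 saline pericytes (15.1 UPM), while fibroblasts had 553 UPM after bleomycin and 378 after saline. The 38 UMIs came from 9.62% of the bleomycin pericytes. Between the libraries Cox4i2 in pericytes was lower after bleomycin by a log2 ratio of -0.54 (fold interval 0.64 to 0.74) and Ndufa4l2 by -0.26 (0.75 to 0.93). Pericytes held 97.5% of the Cox4i2 level summed over the 10 classes of each library after bleomycin and 97.3% after saline, and 92.0% of the Ndufa4l2 level after bleomycin and 95.1% after saline.

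Outside pericytes both isoforms were far lower. Adventitial fibroblasts had 74.9 UPM of Ndufa4l2 after bleomycin and 44.4 after saline (log2 ratio 0.74, fold interval 1.21 to 2.37), 14.4% of the pair after bleomycin and 13.7% after saline. In smooth muscle cells Ndufa4l2 rose, with 78 UMIs in 21 of 139 bleomycin cells (68.5 UPM) and 17 UMIs in 8 of 235 saline cells (16.0 UPM), a log2 ratio of 2.03 (fold interval 2.51 to 7.73). The 3 cells with most of it held 44.9% of the bleomycin and 70.6% of the saline UMIs, and without them the log2 ratio was 2.80. All of these UMIs lay in the smooth muscle cluster led by Actc1 and Myh11 (97.1 after bleomycin, 28.8 after saline), and the cluster led by Cnn1 and Hhip had 0 in 41 bleomycin and 0 in 132 saline cells. Cox4i2 in smooth muscle had 74.6 after bleomycin and 55.4 after saline (0.42, fold interval 0.95 to 1.91). Erythroid markers summed to 3455 UPM in the bleomycin smooth muscle cells and 1.88 in the saline ones; their part in the result was not tested.

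**Figure D4:**
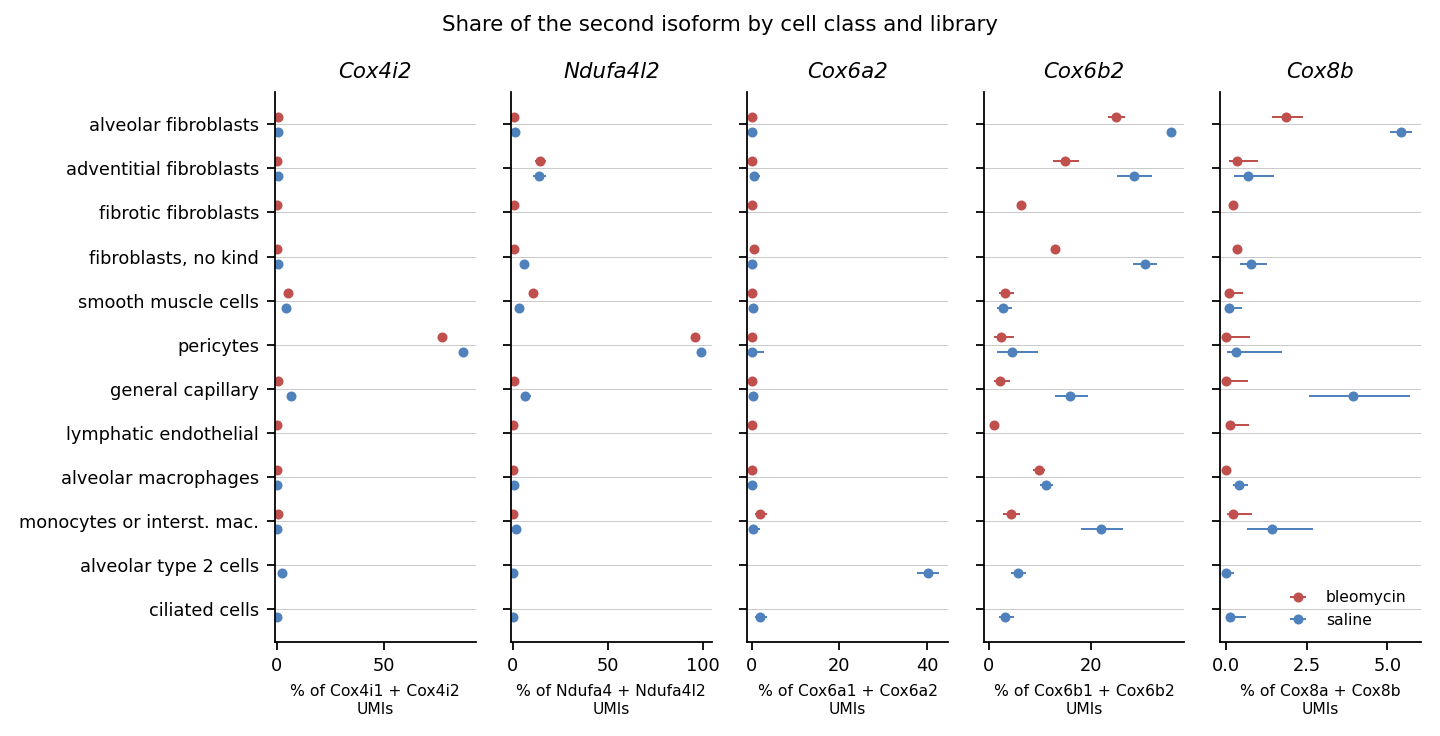
Share of the second isoform among the UMIs of its pair (percent, linear axes of different range) for Cox4i2, Ndufa4l2, Cox6a2, Cox6b2 and Cox8b, by cell class, bleomycin above saline. Points are 1 library each with exact 95% binomial intervals; pericytes stand at 76.9% after bleomycin and 86.7% after saline for Cox4i2 and alveolar type 2 cells of the saline library at 40.1% for Cox6a2.

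Cox6a2, the muscle form of subunit 6a, was high in alveolar type 2-like cells. In the saline library 309 such cells had 602 UMIs (327 UPM), 40.1% (95% interval 37.6 to 42.6%) of Cox6a UMIs. It was found in 47.2% of them thinned to 2000 UMIs (71.5% unthinned), at a median depth of 5963 UMIs, and in 0.31% of thinned saline alveolar macrophages, at 4161. Cox6a1 in the same cells had 489 UPM. The bleomycin library held 1 alveolar type 2 cell, so no comparison could be made. Of other sets, Cox7a1 was highest in alveolar macrophages, at 46 UMIs (19.7 UPM) after bleomycin and 33 (11.4) after saline, 2.16% of Cox7a UMIs after bleomycin and 1.18% after saline. The saline order rested on few UMIs, with 18 in alveolar type 2 cells and 7 in ciliated cells. In saline cells thinned to 2000 UMIs it was found in 2.35% of macrophages, 2.59% of type 2 cells and 3.31% of ciliated cells, with overlapping intervals. Cox7a2l, a supercomplex assembly factor of that family, held 49.4% of Cox7a UMIs in bleomycin fibroblasts and 55.8% in saline fibroblasts, with Cox7a2 at 401 UPM after bleomycin and 338 after saline.

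The upward shift was seen in the other classes with at least 100 cells in each library too. The median log2 ratio of members was 0.30 in alveolar fibroblasts (all genes 0.06), 0.31 in adventitial fibroblasts (all genes -0.09), 0.22 in smooth muscle cells (0.08), 0.44 in endothelial cells (0.15) and 0.24 in alveolar macrophages (-0.12). In alveolar fibroblasts 38 of 81 members were higher and 2 lower at the milder size, where 20.4% and 16.9% of all genes were. At 2-fold 0 rose (all genes 1.46%) and 1 fell (all genes 3.65%). In adventitial fibroblasts 37 of 77 were higher and 4 lower (all genes 20.9% and 33.1%), and 0 rose and 0 fell (all genes 3.18% and 7.51%). In smooth muscle cells 26 of 77 were higher and 0 lower (all genes 30.4% and 20.4%), near the background for the higher ones, with 1 that rose and 0 that fell (all genes 4.63% and 4.43%). In alveolar macrophages 33 of 79 were higher and 4 lower (all genes 16.9% and 31%).

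Across these 5 classes 74 members had enough UMIs in all, and 45 of them had a ratio above 1 in each, where 15.5% of the 2414 genes measured in all 5 did. Ndufc2, Ndufb6, Cox5a, Cox5b and Atp5g1 passed the milder size upwards in each class, as did 2.40% of all genes. Cox7a2l was the member below 1 in each. The endothelial part of these counts depended on lymphatic cells, 70 of the bleomycin and 19 of the saline endothelial cells. Without them the endothelial log2 ratio was -0.04 for Ndufb6 and 0.21 for Atp5g1, both short of the milder size, and Cox7a2l turned above 1, with 660 UPM after bleomycin and 528 after saline (0.32). All of these ratios come from the same pair of libraries. Cox5b, for example, had 438 UPM after bleomycin and 283 after saline in alveolar fibroblasts (0.63), and 391 after bleomycin and 237 after saline in adventitial fibroblasts (0.72). Atp5g1 had 360 after bleomycin and 249 after saline (0.53) in alveolar fibroblasts and 366 after bleomycin and 245 after saline (0.58) in adventitial fibroblasts.

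In endothelial-like cells members summed to 26849 UPM after bleomycin (184 cells) and 20339 after saline (148 cells), with 49 of 80 members higher and 3 lower at the milder size (all genes 37.3% and 26.1%). At 2-fold 4 rose (all genes 9.35%) and 2 fell (all genes 10%). Ndufc2, a membrane arm subunit of complex I, had 568 after bleomycin and 190 after saline (1.57), and Uqcrc1 223 after bleomycin and 100 after saline (1.15). Cox5a had 388 after bleomycin and 186 after saline (1.06), and Cox5b 565 after bleomycin and 273 after saline (1.05). Ndufa9, an accessory subunit of complex I, stood just short of 2-fold at 0.99. Without the lymphatic cells the summed level was 22036 after bleomycin and 20093 after saline, and the median log2 ratio 0.12 beside -0.01 over all genes. Of 77 members 22 were then higher at the milder size, near the 26.0% of all genes, and 6 were lower. None of the 4 passed 2-fold, with Ndufc2 at 313 after bleomycin and 169 after saline (0.89). In the lymphatic cells of the bleomycin library Ndufc2 stood at 832 and Cox5b at 759.

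The lowest ratios of endothelial cells were those of Cox4i2 and Cox6b2, which fell, followed by Ndufaf3 (-0.49), Sdha (-0.13) and Ndufa4 (-0.08). Cox4i2 had 4 UMIs after bleomycin and 56 after saline (-3.99), but 54 of the 56 came from 1 cell. The 3 cells of each library that held most had 75% of the bleomycin and 100% of the saline UMIs. Without them the log2 ratio was 0.62, a value set by the prior of 1 UPM because no saline UMIs were left. Cox6b2 had 16 UMIs after bleomycin (8.55 UPM) and 86 after saline (75.0 UPM, in 42 of 148 cells), a log2 ratio of -2.99. The 8 alveolar fibroblast markers, all detected, summed to 166 UPM in bleomycin general capillary cells and 4514 in saline ones. In alveolar fibroblasts they summed to 8385 after bleomycin and 9097 after saline. Their part in the Cox6b2 difference was not tested. Nor was their part in the summed level, counts and other ratios of endothelial cells, with or without lymphatic cells. Cox8b in general capillary cells moved the same way, with 0 UMIs in 96 bleomycin cells and 26 in 103 saline cells.

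In alveolar macrophages Ndufaf3, a complex I assembly factor, had the highest ratio of the members with enough UMIs, with 28.7 UPM after bleomycin and 15.2 after saline (0.88), and Ndufb2, a complex I subunit, had a log2 ratio of 0.78. Uqcrb of complex III had 638 after bleomycin and 379 after saline (0.75), and Sdhb and Ndufs4 were at 0.71 each. At the lower end Uqcrfs1, the Rieske iron-sulphur protein of complex III, had 147 after bleomycin and 221 after saline (-0.59), and Ndufaf4 was also at -0.59. Uqcrh had 659 after bleomycin and 890 after saline (-0.43), Cox7a2l 337 after bleomycin and 465 after saline (-0.46) and Atp5g2 was at -0.27. No member passed 2-fold, where 2.88% of all genes rose and 4.96% fell. Most bleomycin macrophages (303 of 332) and most saline ones (552 of 637) were in different clusters. In the cluster with cells of both, 20 bleomycin and 79 saline cells, the members summed to 34362 after bleomycin and 29053 after saline (0.24), near the 0.19 of the whole class. The 20 bleomycin cells are fewer than the 40 asked elsewhere for a level.

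Over all fibroblasts together the mitochondrially encoded subunits did not share the shift. The 13 genes summed to 19966 UPM in bleomycin fibroblasts and 21177 in saline fibroblasts (log2 ratio -0.08). None of the 12 with enough UMIs was higher at the milder size, and 3 were lower: mt-Nd2 (-0.92), mt-Nd4l (-0.57) and mt-Nd4 (-0.42), which encode membrane subunits of complex I. Other classes differed in the median share of a cell's UMIs held by the 13 genes. It was higher after bleomycin in alveolar macrophages (2.86%, saline 2.36%), alveolar fibroblasts (2.26%, saline 2.08%) and adventitial fibroblasts (2.13%, saline 2.03%). It was lower in smooth muscle cells (2.82%, saline 3.28%) and endothelial cells (2.05%, saline 2.06%). Fibroblasts had 1.247 nuclear UMIs per mitochondrial UMI after bleomycin and 0.970 after saline. Pericytes had 1.57 after bleomycin and 1.87 after saline, alveolar macrophages 1.05 after bleomycin and 1.08 after saline, smooth muscle cells 0.97 after bleomycin and 0.71 after saline, and saline alveolar type 2 cells 0.53. The ratio of nuclear to mitochondrial UMIs was higher after bleomycin in smooth muscle and in each fibroblast kind with both libraries, and lower in pericytes and alveolar macrophages. Monocytes or interstitial macrophages had 1.31 after bleomycin and 1.01 after saline.

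**Figure D5:**
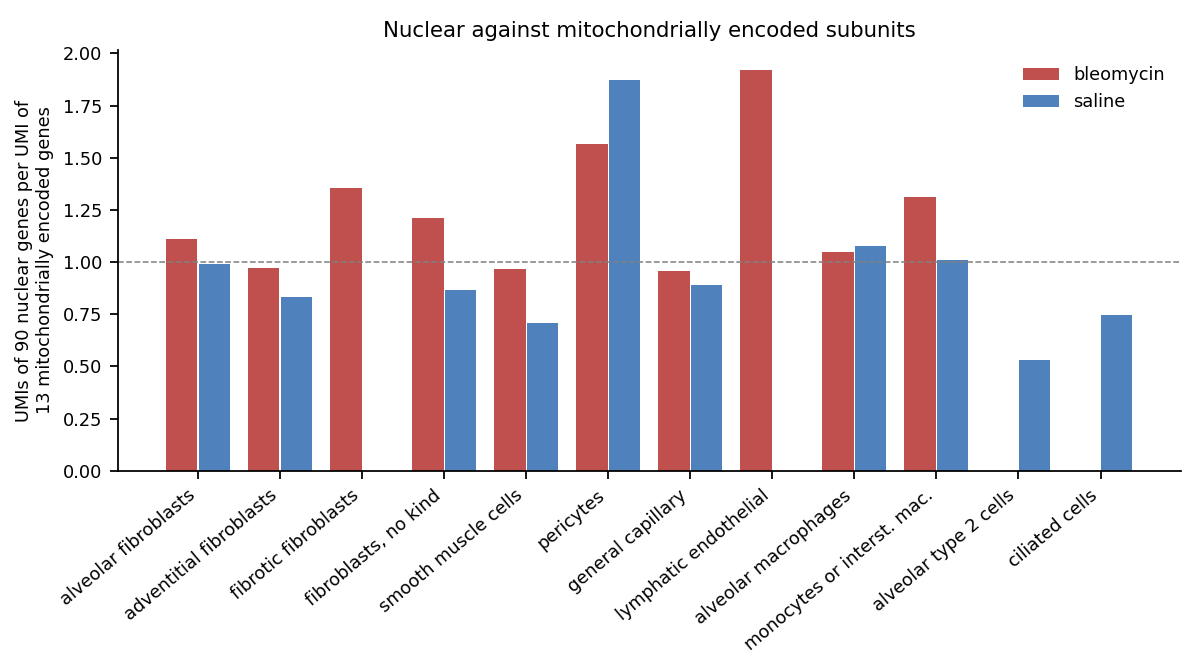
UMIs of the 90 nuclear genes per UMI of the 13 mitochondrially encoded subunit genes (linear axis from 0; dashed line at 1) by cell class, bleomycin left of saline, 1 library per bar. Pericytes stand at 1.57 after bleomycin and 1.87 after saline and saline alveolar type 2 cells at 0.53.

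Other mitochondrial genes of fibroblasts were read from lists of known function. Subunits of the same complexes that carry other names followed the members: 4 of 5 were higher and none lower at the milder size, led by Usmg5 of the ATP synthase (0.61). Of 69 mitochondrial ribosomal protein genes with enough UMIs 29 were higher and 3 lower (median 0.28), and of 87 cytosolic ones 20 and 3 (median 0.17). The shares over all fibroblast genes were 26.1% higher and 29.1% lower. Of 9 carriers and outer membrane proteins 8 were higher and 0 lower (median 0.55). Slc25a5, which exchanges ADP for ATP across the inner membrane, rose, with 455 UPM after bleomycin and 208 after saline (1.13). Vdac1, a channel of the outer membrane, was at 0.62.

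Of all genes in fibroblasts 26.1% were higher and 29.1% lower at the milder size, and the shares of higher genes in the lists for pyruvate and the citric acid cycle, import, assembly factors and cytosolic ribosomal proteins lay near that level. Of 17 pyruvate dehydrogenase and citric acid cycle genes 5 were higher and 2 lower (median 0.26), led by Mdh2, malate dehydrogenase, at 0.71. Of 20 import and chaperone genes 6 were higher and 1 lower (median 0.27), with Timm10 at 0.71 and Tomm6 at -0.76. Of 7 mitochondrial antioxidant genes 4 were higher and 0 lower, and Prdx5, a peroxiredoxin, rose, with 675 after bleomycin and 300 after saline (1.17). Of 19 assembly factors outside the Ndufaf series 5 were higher and 3 lower (median 0.15). Cmc1, which acts in complex IV assembly, rose, with 60.6 after bleomycin and 28.2 after saline (1.08), and Cox17, a copper chaperone of the same complex, was at -0.62.

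Of 9 fatty acid oxidation genes 1 was higher and 2 lower (median -0.06, beside -0.01 over all genes). Hadh, a dehydrogenase of that pathway, fell, with 100 UPM after bleomycin and 207 after saline (-1.03), while Acadl was at 0.66. Of 10 genes for electron carriers, ubiquinone synthesis and the ATP synthase inhibitor 1 was higher and 3 lower. Atpif1, the inhibitor, had 503 after bleomycin and 271 after saline (0.89), and Coq10b and Coq2 of the ubiquinone pathway were at -0.87 and -0.73. Of 4 hypoxia response genes with enough UMIs out of 11, Vegfa fell, with 10.5 after bleomycin and 47.3 after saline (-2.07), and Ldha, lactate dehydrogenase A, was at 0.59. Of 13 regulators of mitochondrial biogenesis 3 had enough UMIs, with Myc at 33.2 after bleomycin and 17.5 after saline (0.88) and Esrra, the estrogen-related receptor alpha, at 0.23.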

How the data were processed

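The authors deposited raw UMI counts per gene and cell for each library, made with Cell Ranger 2.1.1 on mm10 per the submitters' processing notes. Cells with at least 500 genes, 1000 UMIs and at most 10% mitochondrial UMIs were kept (5 bleomycin and 23 saline barcodes left out). Scrublet marked 5 and 34 doublets by its own threshold, too few in the bleomycin library to trust; instead the top-scoring 160 and 237 were removed, at 0.8% per 1000 barcodes. Cells were clustered with scanpy 1.11.5 (2000 variable genes without members, related mitochondrial lists and ribosomal genes, 30 components, Leiden resolution 1) and named from marker lists; the thresholds for naming were chosen after the clusters were seen. Counts were summed per class and library and scaled to UPM (UMIs per 1000000); log2 ratios are bleomycin over saline with a prior of 1 UPM. Intervals (exact Poisson, binomial and conditional binomial, 95%, scipy 1.17.1) cover counting error only, and 1 library per treatment allows no test. Shares of cells were read after thinning cells to 2000 UMIs, which no cell fell short of. The depth difference between the libraries limits genes of few UMIs.

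The members and lists were chosen with earlier results of these data known. Genes named are, per complex, the 2 highest and the lowest member in fibroblasts; the 5 highest and 5 lowest ratios in fibroblasts, alveolar macrophages and endothelial cells; members past 2-fold in a class with 100 cells in each library; paralog sets; complex II; and up to 4 genes per related list. Near copies were sought in the last 300 bases of GENCODE vM21 transcripts (97% identity over 90 bases): 22 members have a copy and 6 have one listed in the files. Alternatives covered clustering, filters, doublets, scaling, thinning, priors, minimum counts and cycling cells. Leaving out lymphatic cells, leaving out the 3 cells with most UMIs of a gene, and the macrophage cluster of both libraries were chosen after seeing the data.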

Additional observations from a re-analysis of the deposited data

Results flagged for a closer look

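The log2 ratio of Cox4i2, bleomycin over saline, was 0.42 in smooth muscle cells and -3.99 in endothelial cells, a difference of 4.41 with opposite directions in the 2 classes. With 1 library per treatment the difference was not tested. In the saline endothelial cells 54 of 56 UMIs lay in 1 cell. Without the 3 cells of each library that held most of it the endothelial value was 0.62. That value was set by the prior of 1 UPM, because no saline UMIs were left.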

How the results depend on the processing

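No paired analysis was possible because each treatment has 1 library. The summed level and the median log2 ratio of members stayed above 0 under all alternatives run in all 7 classes compared: in fibroblasts they ran from 0.26 to 0.32 and from 0.25 to 0.32, and in smooth muscle cells from 0.12 to 0.23 and from 0.14 to 0.25. For alveolar fibroblasts (summed log2 ratio 0.32) the value was 0.17 and the median 0.16 with each library clustered alone, 0.22 at resolution 2, 0.34 with members among the variable genes, 0.33 as a mean of per-cell levels, and 0.32 without mitochondrial, ribosomal and haemoglobin genes in the denominator. For adventitial fibroblasts the summed value was 0.41 and the median 0.41 with that denominator, 0.40 when scaled by the median gene ratio and 0.33 with each library clustered alone. For endothelial cells (summed 0.40) it was 0.25 and the median 0.29 when scaled by the median gene ratio, 0.31 with thinned cells, 0.31 and the median 0.32 as a mean of per-cell levels, and 0.13 and 0.12 without lymphatic cells. For alveolar macrophages scaling by the median gene ratio gave 0.30 and a median of 0.36. Cox4i2 in endothelial cells came to 0.62 without the 3 cells of each library that held most of it, a value set by the prior because no saline UMIs were left. The 4 endothelial members past 2-fold lost that size under at least 1 alternative, and Cox8b in alveolar fibroblasts did with thinned cells (-0.98). Cox8b and Cox6b2 in fibroblasts kept theirs, from -3.55 to -2.42 and from -1.62 to -1.38. Where an alternative moved a value the cause was not tested. Depth limits members of few UMIs.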

Other observations

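Ciliated-like cells, present in numbers in the saline library alone (121 cells), had the highest Ndufaf3 level of any class, at 168 UPM beside a median of 40.1 over the 10 saline classes. In these cells complex I (8286 UPM) and complex IV (8190 UPM) were nearly level. The log2 ratio of Ndufaf3, bleomycin over saline, was -0.62 in fibroblasts and 0.88 in alveolar macrophages; the difference was not tested.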
